A study of Homo sapiens with 8 samples.

Results

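The cytosolic ribosomal proteins, the protein components of the ribosome outside the mitochondria, were followed through acquired resistance to an FGFR inhibitor. Their genes were taken as the rows of the count table whose Ensembl identifier maps to a protein-coding gene named RPLP0, RPLP1, RPLP2, RPSA, or RPL or RPS with a number and at most 1 letter A, X or L. Pseudogenes, kinases named RPS6K and genes of chromosome Y were left out, and a row needed 10 counts or more when its 8 libraries were summed. The table listed 80 such symbols, RPL10L had 0 counts in all 8 libraries, and the other 79 genes were studied here among the 18203 genes that passed the same filter. Of the 79 genes, 47 encode proteins of the large subunit and 32 encode proteins of the small subunit. RPL7A was not analysed here.

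NCI-H1581 and NCI-H1703 are established human lines, derived from non-small cell lung cancers, which respond to CPL304110, an inhibitor of fibroblast growth factor receptors. The resistant variants NCI-H1581R and NCI-H1703R were selected from them over 4 to 6 months in concentrations of CPL304110 that rose from 50 nM to 2.5 µM for NCI-H1581R and to 5 µM for NCI-H1703R, and each is 1 selected population. Untreated parental cells served as the sensitive group, the lines were kept in different culture media, and cells of every group were harvested 24 h after a change of medium. The sources used here do not state whether CPL304110 was present then. Each of the 4 groups gave 2 libraries from separate rounds of culture, with 33800389 to 40031710 counts per library. In CPM (counts scaled to library size), 3 mesenchymal markers summed to 2743 or more in every library and 3 endothelial markers to 0.450 or less. The mesenchymal sum was 3653 to 3768 CPM in NCI-H1703 and 2743 to 3022 CPM in NCI-H1703R. It was 6104 to 6343 CPM in NCI-H1581 and 5266 to 5304 CPM in NCI-H1581R, where 1 of the 3 genes rose. Other marker lists moved with resistance in 1 line or both. The 4 lung adenocarcinoma markers summed to 14.8 to 17.5 CPM in NCI-H1581 and 39.8 to 67.3 CPM in NCI-H1581R. They summed to 1.97 to 2.57 CPM in NCI-H1703 and 2.02 to 2.03 CPM in NCI-H1703R. The 6 epithelial markers summed to 77.5 to 77.7 CPM in NCI-H1703 and 10.4 to 11.2 CPM in NCI-H1703R. They summed to 22.0 to 23.2 CPM in NCI-H1581 and 15.1 to 18.7 CPM in NCI-H1581R. The 6 squamous markers went from 38.2 CPM to 1.04 to 1.504 CPM in NCI-H1703R, and went from 7.79 to 7.88 CPM in NCI-H1581 to 33.2 to 43.0 CPM in NCI-H1581R. The 4 fibroblast markers went from 2.45 or 2.46 CPM to 23.3 to 28.7 CPM in NCI-H1703R and from 2254 to 2394 CPM to 990 to 1104 CPM in NCI-H1581R. The 6 haematopoietic markers went from 20.3 to 24.8 CPM to 46.3 to 54.6 CPM in NCI-H1703R and from 77.7 to 92.6 CPM to 17.0 to 19.2 CPM in NCI-H1581R. The part of these markers in the results below was not tested. In bulk RNA, fewer cells that use a gene and less RNA of that gene per cell cannot be told apart.

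A ribosome holds a single copy of nearly every ribosomal protein, so a growing cell makes these proteins in matched amounts. Their mRNAs are short, abundant and start with a run of pyrimidines, the terminal oligopyrimidine (TOP) motif, through which the growth factor pathway that runs over PI3K and mTORC1 controls their translation with the help of the RNA-binding protein LARP1. That control acts mainly on translation, which RNA sequencing does not measure. Several members have roles outside the ribosome, as RPL5 and RPL11, which bind the p53 regulator MDM2 when ribosome assembly fails.

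The start of transcription is shown for members on which the results turn, because most of these genes carry a pyrimidine run there. RefSeq promoter windows (GRCh38.p14) matched 62 of the 79 genes, with 77 annotated starts. Each line below gives 30 bases, 10 before the annotated start and 20 from it, and capitals mark the longest pyrimidine run in those 30 bases.
RPL13A (chr19:49487598-49487627, + strand): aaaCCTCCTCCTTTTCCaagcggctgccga
RPL28 (chr19:55385922-55385951, + strand): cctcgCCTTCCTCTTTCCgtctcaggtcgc
RPL18 (chr19:48619159-48619188, - strand): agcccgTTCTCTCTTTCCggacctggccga
RPSA (chr3:39406710-39406739, + strand): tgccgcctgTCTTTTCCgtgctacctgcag
RPL14 (chr3:40457329-40457358, + strand): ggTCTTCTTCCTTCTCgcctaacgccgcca
RPL29 (chr3:51995876-51995905, - strand): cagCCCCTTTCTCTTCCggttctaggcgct
RPS23 (chr5:82278335-82278364, - strand): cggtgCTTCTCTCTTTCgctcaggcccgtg
RPS27 (chr1:153990752-153990781, + strand): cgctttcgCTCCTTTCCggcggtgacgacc
RPS4X (chrX:72277229-72277258, - strand): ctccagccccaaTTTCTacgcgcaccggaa

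A run of at least 8 pyrimidines was present in 55 of the 77 starts (71.4%), against 12.7% of 35116 starts in the whole table, and 10 matched genes, among them RPL3, RPL32 and RPS4X, had none at any start. The letters CTTCCG, searched on both strands of the whole promoter window from 250 bases before to 50 after the start, were found in 61.0% of the members' starts and 19.5% of all starts. TCTCGCGA was found in 15.6% and 1.15%, and TATAAA in 5.19% and 11.5%. These matches describe the letters in a window only. A run of at least 8 pyrimidines stood both at members that passed the tests below in NCI-H1703R (RPL13A, RPL28, RPSA, RPL14 and RPS23) and at members that did not (RPL18 and RPL29). RPL32 passed there too, without such a run, and RPL18 passed only when the replicate number was a blocking factor.

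Most of these genes were abundant. In every library 71 of the 79 genes had at least 1000 counts. The median transcript length was 683 bases (quartiles 562 and 801), against 1993 bases over 15546 protein-coding genes tested. On a scale of CPM per kilobase of transcript, averaged over the 8 libraries, the highest levels were those of RPLP0 at 3480 and RPLP1 at 3378, which form the acidic stalk that recruits translation factors, and of RPS2 at 2983, a protein of the mRNA entry channel. RPLP2, the partner of RPLP1 in the stalk, stood at 874 on the same scale. Of the paralogs, RPL39L reached 75.8 CPM per kilobase against 1375 for RPL39, and RPL3L, the striated muscle paralog of RPL3, reached 0.0523 against 1146 for RPL3, with 6 counts or fewer in every library. RPS27L, at 27.7, stood above RPS27, at 14.5. The RPS27 row held 1530 counts over the 8 libraries and its annotated pseudogenes 124, and why this row was so low was not tested. RPL26, RPS7, RPS9, RPS10 and RPS27 were also under 1000 counts in some library.

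The 2 libraries of NCI-H1581R stood apart from each other, which touches every comparison that includes them. The 79 genes together held 5.47% and 5.28% of all counts in the NCI-H1581 libraries, 7.14% and 5.05% in NCI-H1581R, 4.78% and 4.96% in NCI-H1703, and 3.96% and 4.30% in NCI-H1703R, in the order of the replicates. Counting error alone gives each share a 95% Wilson interval of at most 0.00806 percentage points to either side. Replicate 1 of NCI-H1581R was the highest of the 8 libraries and replicate 2 of the same variant lay below both NCI-H1581 libraries. The members' median log2 deviation from the line mean was -0.009 and -0.095 in NCI-H1581. In NCI-H1581R it was 0.379 and -0.262. Which of these 2 libraries is nearer to the level of the variant cannot be told from them. Of the 79 genes, 77 were higher in replicate 1 of NCI-H1581R than in replicate 2, by a median of 0.70 on the log2 scale, compared with 0.09 between the NCI-H1581 libraries, -0.10 between the NCI-H1703 libraries and -0.16 between those of NCI-H1703R.

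**Figure D1:**
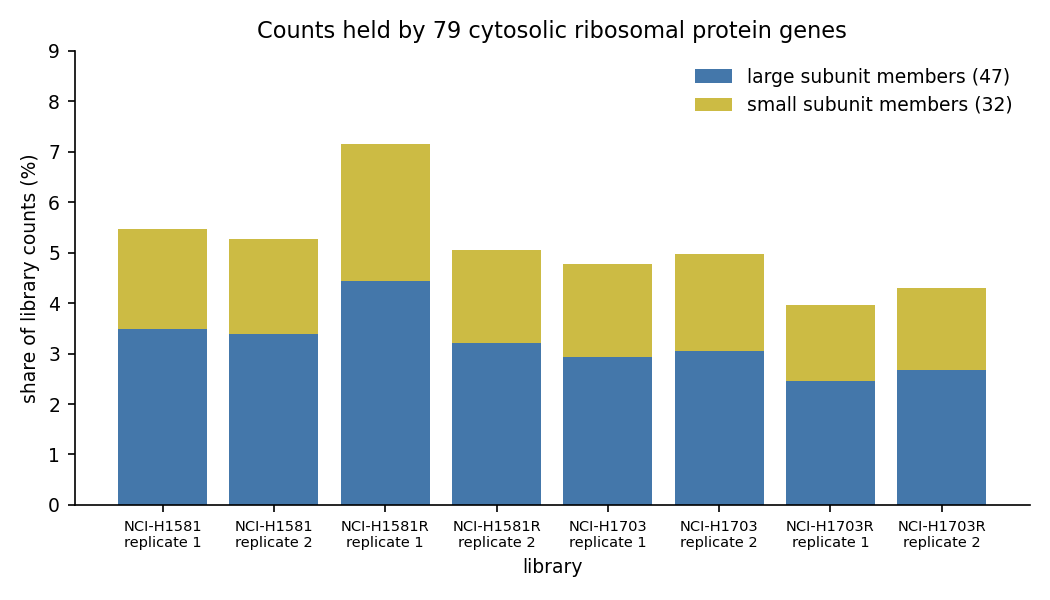
Share of each library's counts (percent, vertical axis) held by the large subunit and small subunit members, stacked, for the 8 libraries. Replicate 1 of NCI-H1581R reached 7.14% and replicate 2 of that variant 5.05%, while the NCI-H1703R libraries, at 3.96% and 4.30%, lay below the NCI-H1703 libraries.

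Because the transcripts are short, the same replicate difference was read in other genes. Other genes with transcripts of 600 to 1000 bases differed between the NCI-H1581R libraries by a median of 0.23 (1866 genes), those of 2500 to 4000 bases by -0.08 (2183 genes) and those of at least 4000 bases by -0.22 (1918 genes). Members of 600 to 1000 bases differed by 0.70. By GC content the medians of other genes stayed between 0.01 and 0.07. The difference was also seen in 78 mitochondrial ribosomal protein genes (0.48) and 73 nuclear genes of oxidative phosphorylation (0.52), and it was 0.32 in 18 other TOP mRNAs and 0.04 in 52 genes of ribosome biogenesis. The part of transcript length or of library preparation in these values was not tested further.

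**Figure D2:**
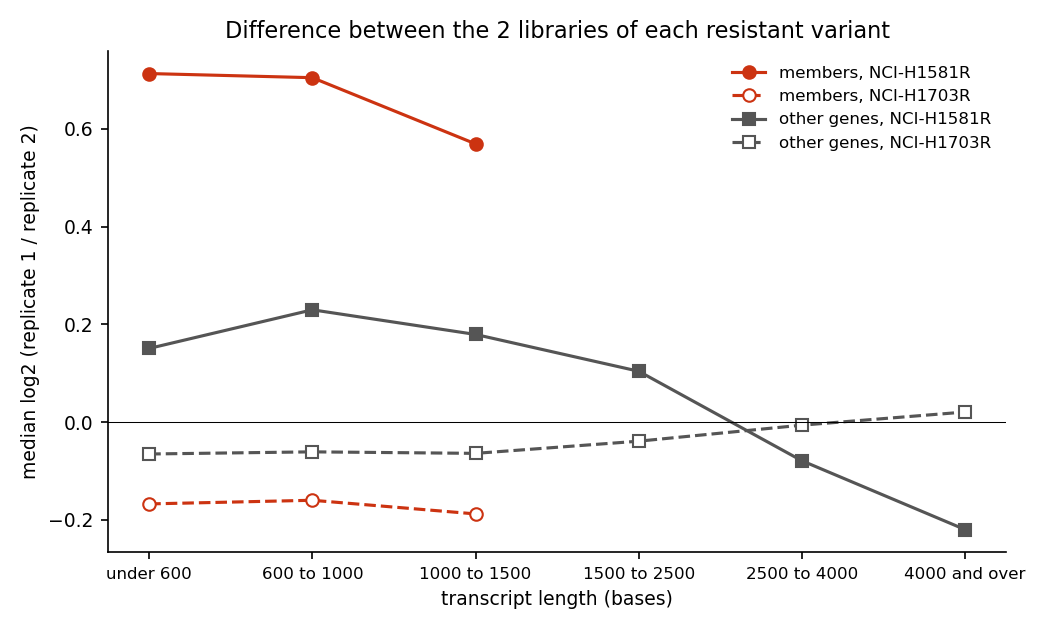
Median log2 ratio of replicate 1 to replicate 2 (vertical axis) in bins of transcript length in bases (horizontal axis) for members (red) and other genes at 5 CPM or more (grey), in NCI-H1581R (filled, solid line) and NCI-H1703R (open, dashed line). In NCI-H1581R the members lay at 0.57 to 0.71 in the 3 bins under 1500 bases, above the other genes of the same length at 0.15 to 0.23.

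The first question was whether these genes changed as NCI-H1581 became resistant. By the quasi-likelihood test of edgeR, adjusted over all genes by Benjamini-Hochberg with a threshold of 0.1, 1 member rose (1.27%, against 7.63% of all genes tested) and 1 fell (1.27%, against 7.44%). In either direction that is 2.53% of the 79 genes against 15.1% of all genes. The median log2 fold change of the members was 0.14, against 0.04 over all genes. The summed share was 5.37% ± 0.138 (SD, n = 2) in NCI-H1581 and 6.10% ± 1.48 in NCI-H1581R, and the exact two-sided permutation test gave p = 1. With the replicate number as a blocking factor 1 rose (background 9.21%) and 2 fell (background 8.88%). The direction of the group depended on the library read, in fits that assume that the remaining NCI-H1581R library varies like the NCI-H1581 libraries. Without replicate 1 of NCI-H1581R the members' median became -0.23, 18 members passed as lower (22.8%, against 13.9% of all genes) and 0 as higher (background 14.5%). Without replicate 2 the median became 0.43, 44 passed as higher (55.7%, against 11.1%) and 1 as lower (1.27%, against 10.8%).

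The member that rose in NCI-H1581R was one of low count. RPS27, a zinc finger protein of the small subunit, was at 4.87 and 4.68 CPM in NCI-H1581 and at 10.2 and 7.98 CPM in NCI-H1581R, without overlap (167 and 186, then 385 and 312 counts). It rose 1.90-fold (log2 0.93, standard error 0.26, edgeR adjusted p = 0.0812). RPS27 did not pass without replicate 1 of NCI-H1581, without its replicate 2 or without replicate 1 of NCI-H1581R. Pseudogenes of RPS27 held 7.50% of the counts of gene and pseudogenes together. Whether this row reflects the level of RPS27 mRNA was not tested, so the rise describes the row only.

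None of the 71 members with at least 1000 counts in every library passed in NCI-H1581R. RPLP0 was at 3610 and 3230 CPM in NCI-H1581 and at 5280 and 2980 CPM in NCI-H1581R, where the libraries enclose the sensitive ones. RPS6, the small subunit protein that is phosphorylated downstream of mTORC1, was at 966 and 946 CPM and then at 1383 and 884 CPM (log2 0.25, standard error 0.26, adjusted p = 0.631). RPL5 and RPL11 gave log2 values of 0.24 and 0.01 with adjusted p of 0.579 and 1, and RPS27A, made as a fusion with ubiquitin, gave 0.28 with an adjusted p of 0.585. Only 1 member lay above both sensitive libraries in both resistant ones (background 27.1%), and 3 lay below (background 23.9%). RPS27L, the p53-responsive paralog of RPS27, was 1 of these 3, at 38.2 and 32.1 CPM in NCI-H1581 and 27.0 and 16.1 CPM in NCI-H1581R, with an adjusted p of 0.176, or 0.0614 with the replicate block.

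In NCI-H1703R the members were lower on average by a small step that was uneven between libraries, and a few by much more. Of the 79 genes 9 fell and none rose by the same edgeR test, which is 11.4% lower against 7.67% of all genes tested and 0 higher against 7.06%, and 14.7% of all genes passed in either direction. At an unadjusted p under 0.05, 12 members passed (15.2%, against 24.6% of all genes). The median log2 fold change was -0.13 against 0 over all genes, and 63 of 79 values were below 0. A similar median was seen in 18 other TOP mRNAs (-0.17) and 52 genes of ribosome biogenesis (-0.11). It was 0.08 in 78 mitochondrial ribosomal protein genes and 0.09 in 73 nuclear genes of oxidative phosphorylation. The members' median log2 deviation from the line mean was 0.003 and 0.12 in the NCI-H1703 libraries, in the order of the replicates. In NCI-H1703R it was -0.13 and 0.02, so on this scale replicate 2 of NCI-H1703R did not lie below replicate 1 of NCI-H1703. Both NCI-H1703R libraries lay below both NCI-H1703 libraries for 34 members (43%, background 24.6%) and above them for 2 (2.53%, background 26.6%). The share of counts was 4.87% ± 0.129 (SD, n = 2) in NCI-H1703 and 4.13% ± 0.245 in NCI-H1703R, a difference of -0.742 percentage points that has the smallest p the exact permutation test can give with 2 against 2 libraries, 0.333. Same-numbered libraries were taken to share a culture round, because the procedure was repeated for the second replicate. The sample titles give only the replicate number. When that number was a blocking factor, 31 members were lower (39.2%, against 16.7% of all genes). With it 2, RPL9 among them, were higher (2.53%, against 18.2%). All 9 genes of the unblocked fit were among those 31. DESeq2 gave 17 lower (21.5%, against 8.83%) and 0 higher (background 7.85%). The 9 genes were lower with any 1 of the 4 libraries left out, but fewer members and fewer of all genes passed in 3 of these fits. Without replicate 1 of NCI-H1703 3 members were called lower (3.8%, background 1.15%), without its replicate 2 only 1 (1.27%, background 1.07%) and without replicate 1 of NCI-H1703R 4 (5.06%, background 4.07%). RPL28 passed in all 4 fits, RPL13A passed with each NCI-H1703R library left out in turn, and RPSA, RPL8, RPL32, RPL14 and RPS23 passed without replicate 2 of NCI-H1703R. Without replicate 2 of NCI-H1703R all 9 were among 14 that passed (17.7%, background 5.28%).

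Among the largest falls were genes at the end of the long arm of chromosome 19. RPL28 (ENSG00000108107, chr19:55385932-55403250, + strand), a protein of the large subunit, was at 571 and 542 CPM in NCI-H1703 and at 229 and 247 CPM in NCI-H1703R, a 2.34-fold fall (log2 -1.23, standard error 0.10, edgeR adjusted p = 0.00224). RPL13A (ENSG00000142541, chr19:49487510-49493057, + strand), known also for silencing the translation of inflammatory mRNAs, went from 933 and 957 CPM to 430.5 and 491 CPM, 2.05-fold lower (log2 -1.04, standard error 0.11, adjusted p = 0.00564). In both genes the highest resistant library was below the lowest sensitive one by a wide margin. Neither passed in NCI-H1581R, where RPL28 was at 627 and 635 CPM in the sensitive and 665 and 509 CPM in the resistant libraries, and RPL13A was at 1222 and 1139 CPM and then at 1589 and 1045 CPM. In both genes the resistant libraries of that line enclosed the sensitive ones.

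Members of other chromosomes that passed, 5 in all, fell by less. RPSA (ENSG00000168028, chr3:39406716-39426255, + strand), a small subunit protein also known as the laminin receptor, was at 1869 and 2092 CPM in NCI-H1703 and 1102 and 1368 CPM in NCI-H1703R (log2 -0.68, standard error 0.15, adjusted p = 0.0495). RPL8, which lies close to the peptidyl transferase centre and maps to chromosome 8, was at 1615 and 1724 CPM and then at 979 and 1187 CPM (log2 -0.62, adjusted p = 0.0485). RPL32 and RPL14, large subunit genes of chromosome 3, gave log2 values of -0.55 and -0.50 with adjusted p of 0.0686 and 0.0409. RPS23, of the decoding centre, gave -0.45 with an adjusted p of 0.0514. In none of these 5 genes did the sensitive and resistant libraries overlap.

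The stalk genes and most others did not pass in NCI-H1703R without the block. RPLP0 was at 2193 and 2443 CPM in NCI-H1703 and 1727 and 2070 CPM in NCI-H1703R (log2 -0.29, standard error 0.15, adjusted p = 0.298, and 0.00935 with the replicate block). RPLP1 overlapped between the variants, at 984 and 1063 CPM and then 1042 and 969 CPM. RPS2 was at 2423 and 2620 CPM and then at 1688 and 2060 CPM (log2 -0.43, adjusted p = 0.149, and 0.00153 with the replicate block). RPS6, RPS27A, RPL5, RPL11 and RPS4X gave log2 values between -0.18 and -0.08, each with an adjusted p of at least 0.343, and of these RPL11 passed with the replicate block (adjusted p = 0.0658).

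**Figure D3:**
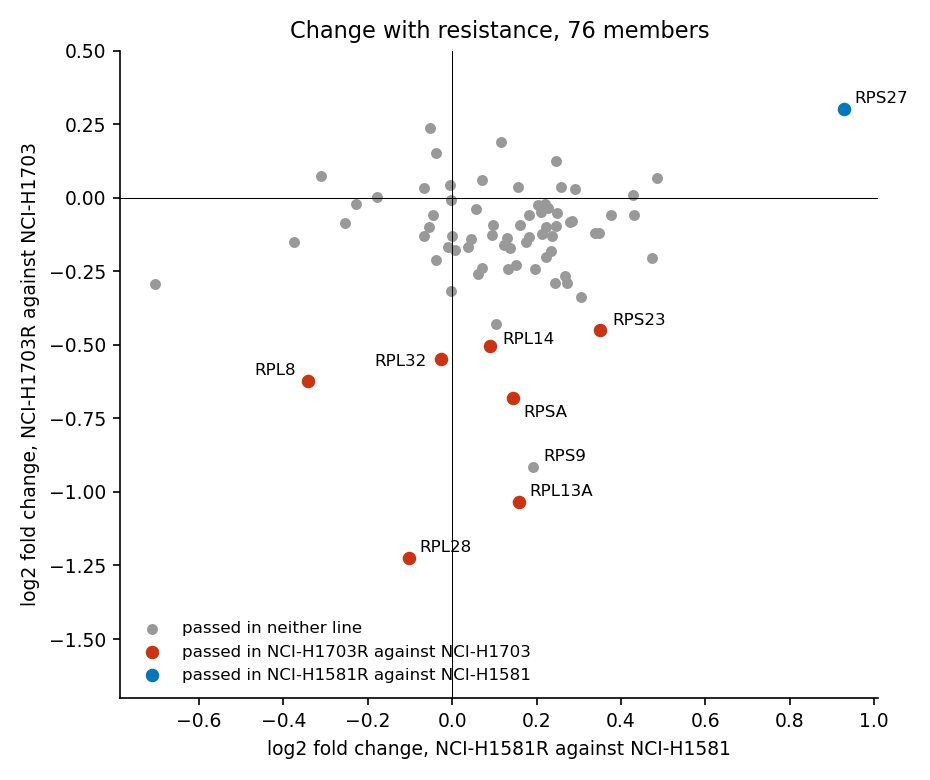
Log2 fold change of 76 of the 79 members with resistance in NCI-H1581 (horizontal axis) and NCI-H1703 (vertical axis), coloured by the line in which edgeR's adjusted p was under 0.1. The members in red lie at -0.45 or below on the vertical axis and between -0.34 and 0.35 on the horizontal axis, and RPS9, labelled in grey, rests on 27 counts or fewer in each NCI-H1703 library.

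What the 9 genes share was looked for in their position, which the choice of members did not use. The windows and stretches below were chosen after the values were seen. In NCI-H1703R, other protein-coding genes at 5 CPM or more between 48 and 49 Mb of chromosome 19 had a median log2 fold change of -0.09 (21 genes), and those between 49 and 50 Mb of -0.97 (27 genes, 21 of them called lower). From 49 Mb to the end of the chromosome the median was -0.94 over 137 genes, of which 96 (70.1%) were called lower and 0 higher, and 4 of the 5 members there passed as lower, RPL13A and RPL28 among them. Over the rest of the chromosome the median of 604 genes was -0.01, and 8.77% of them were called lower. None of 7 members there passed, or 2, RPL18 and RPS19, with the replicate block, where 16.7% of all genes were lower. RPL18, at 48.6 Mb, gave -0.32 (609 CPM in both NCI-H1703 libraries, 450 and 529 CPM in NCI-H1703R, adjusted p = 0.163, and 0.00765 with the replicate block), while RPS16 and RPS19, farther from the chromosome end, gave -0.05 and -0.24, the latter with an adjusted p of 0.289, and 0.0273 with the replicate block. RPL28 lies between 55 and 56 Mb, where the median of 26 other genes was -1.17, close to its own -1.23. In NCI-H1581R the median of the same 137 genes was 0.02, with 3 called higher and 7 lower, and none of the 5 members passed.

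**Figure D4:**
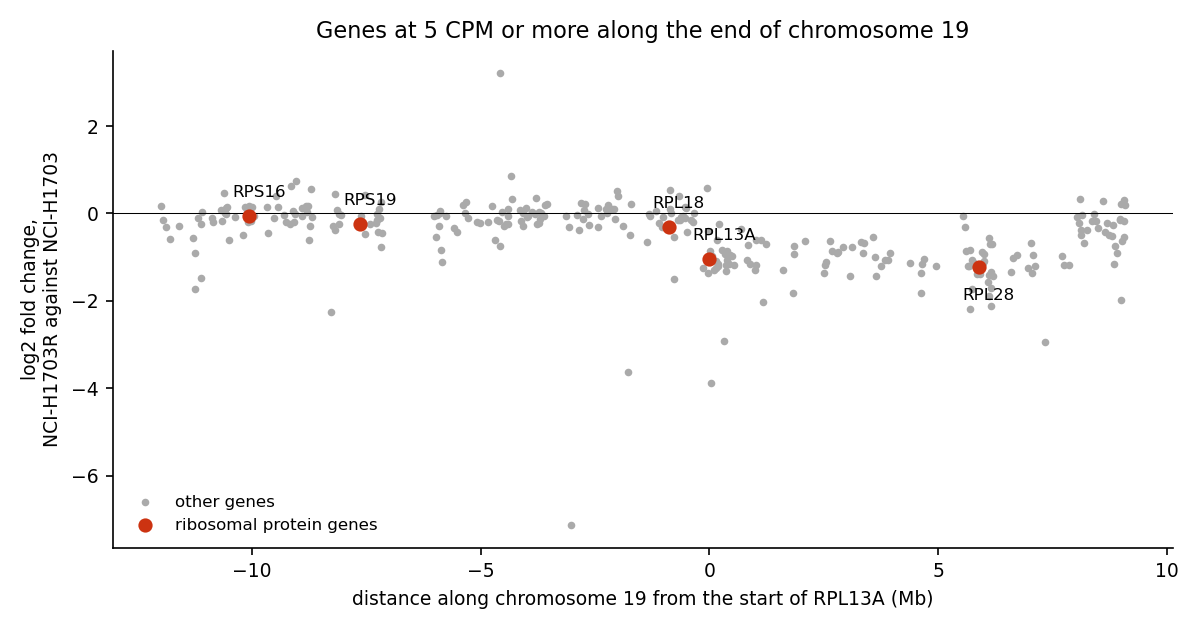
Log2 fold change in NCI-H1703R against NCI-H1703 (vertical axis) of genes at 5 CPM or more by distance in Mb from the start of RPL13A (horizontal axis) along the end of chromosome 19, with ribosomal protein genes in red. Genes to the left of RPL13A scatter around 0, and most genes from RPL13A to just beyond RPL28 lie near -1, with genes at the very end of the chromosome closer to 0.

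A shallower stretch on chromosome 3 held 3 more of the 9. Between 10 and 50 Mb, 164 other genes had a median of -0.37 in NCI-H1703R and 67 of them (40.9%) were called lower. The members there were RPL32, RPL15, RPSA and RPL14, all with log2 values of -0.34 or below, of which RPL15 did not pass (-0.34, adjusted p = 0.214, and 0.00834 with the replicate block). Just beyond it RPL29, at 52.0 Mb, gave 0.15, and 418 other genes on the rest of the chromosome had a median of 0.17. The neighbours of RPL8 within 5 Mb had a median of -0.41 (70 genes) and those of RPS23 of -0.23 (22 genes). Outside both stretches 70 members remained, with a median of -0.10. Of these, 2, RPL8 and RPS23, passed as lower, where 7.67% of all genes tested were called lower. With the replicate block 23 were lower and 2 higher, where 16.7% of all genes were lower and 18.2% higher. Across 76 members with at least 100 counts in every library, Pearson's r between a member's log2 fold change and the median of its neighbours within 5 Mb was 0.81 in NCI-H1703 (Spearman's rho 0.54) and 0.46 in NCI-H1581 (rho 0.31), and over all 79 members r was 0.67 in NCI-H1703. The 74 of them that are plotted gave an r of 0.76 in NCI-H1703. These are descriptions over genes that share libraries and scaling and, where they lie close, neighbours. DNA copy number was not analysed here, and its part in these values was not tested.

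**Figure D5:**
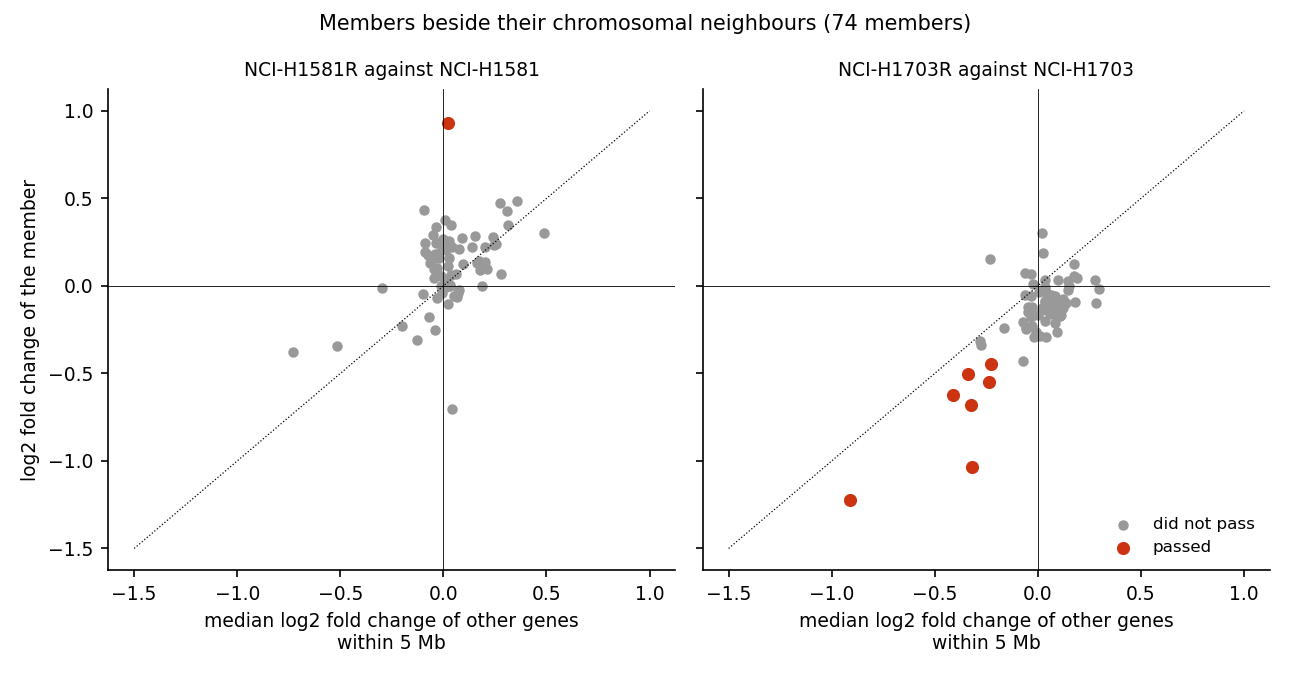
Log2 fold change of 74 of the 76 members with at least 100 counts in every library (vertical axis) against the median of other genes within 5 Mb (horizontal axis) in NCI-H1581 (left) and NCI-H1703 (right), with the dotted line marking equal values and red points an adjusted p under 0.1. In NCI-H1703 all red points have neighbours with a median of -0.23 or below, and in NCI-H1581 the red point, RPS27, has neighbours with a median of 0.02.

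Whether a member changed differently in the 2 lines was tested with an interaction term over all 8 libraries. By edgeR's test 5 members passed (6.33%, against 15.4% of all genes). The change was lower in NCI-H1703 for 4 members (5.06%, background 8.47%), RPL13A and RPL28 among them, and higher for 1 (1.27%, background 6.93%). RPSA, RPL14, RPL32, RPS23 and RPL8, which passed in NCI-H1703 alone, did not pass in this test (adjusted p from 0.141 to 0.711), so a difference between the lines was not shown for them, although RPL14 and RPS23 passed with the replicate block (adjusted p 0.0934 and 0.0899). The members' median difference was -0.32 (all genes -0.09), and it became 0.04 without replicate 1 of NCI-H1581R, with 4 members passing as higher (background 10.8%) and 4 as lower (background 12%). Without replicate 2 it became -0.63, with 1 passing as higher (background 8.05%) and 45 as lower (57%, background 10.6%).

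The sensitive lines themselves differed in many of these genes. Between NCI-H1703 and NCI-H1581, 50 members passed (63.3%, against 62.9% of all genes). Of these, 15 were higher in NCI-H1703 (19%, background 32.5%) and 35 lower (44.3%, background 30.4%). The median log2 difference was -0.17 against 0.04 over all genes. RPS9, read with caution below, is among those lower. A single fit of all 8 libraries gave 6 higher (7.59%, background 29.8%) and 19 lower (24.1%, background 28.3%). RPL3, RPL8 and RPS23, which passed, changed direction with offsets for GC content and transcript length. RPLP1 and RPLP2 were lower in NCI-H1703 by 0.85 and 1.07 on the log2 scale, with standard errors of 0.11 and 0.09 and edgeR adjusted p of 0.000383 and 5.68e-05. RPS6 was lower by 0.73 (adjusted p = 0.00036). The 4 members of the chromosome 3 stretch were all higher in NCI-H1703, RPL14 by 0.82, RPL15 by 0.68, RPL32 by 0.63 and RPSA by 0.41, where the neighbours within 5 Mb were higher by medians of 0.59, 0.97, 0.40 and 0.65. The length used for RPL14 was 7072 bases, the median over its annotated transcripts, and whether these are the ones expressed was not tested. With offsets for GC content and that length and the replicate block, the RPL14 value was 0.14 (edgeR adjusted p = 0.310). These values share the NCI-H1703 libraries with the comparison above. RPL13A was lower in NCI-H1703 by 0.32 (adjusted p = 0.0215, and 0.133 with the same offsets and block), and RPL28 gave -0.17, which did not pass (adjusted p = 0.132).

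Some rows cannot be read as the level of their gene. RPS9 had 18871 to 28885 counts in each library of the NCI-H1581 line, but 27 and 2 in NCI-H1703 and 4 and 12 in NCI-H1703R. The table has 2946 rows without a gene symbol in the annotation used here, 37 of which hold 1000 counts or more in each NCI-H1703 and NCI-H1703R library and at most 100 in each NCI-H1581 and NCI-H1581R library, against 97 of 34495 named rows. Whether reads of RPS9 stand in such a row was not tested. Annotated pseudogenes of the members took 0.0731% to 0.146% of a library's counts, and for 6 members (RPL21, RPL23A, RPS28, RPS2, RPL36A and RPS27) they held over 5% of the counts of gene and pseudogenes together, with 67.1% for RPL21.

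Lists of genes that work beside the ribosomal proteins, or resemble them in length, held the following calls by the same test. Over all genes tested, 15.1% passed in NCI-H1581R (7.44% as lower) and 14.7% in NCI-H1703R (7.67% as lower). The 7 ribosomal protein genes outside the symbol rule (FAU and RACK1 among them) gave no call in either line, and their median log2 fold changes were -0.0044 in NCI-H1581R and -0.13 in NCI-H1703R. Of 18 other TOP mRNAs none passed in NCI-H1581R. In NCI-H1703R 3 of them (16.7%), EEF1D, EIF3F and BTF3, fell, by 0.36, 0.42 and 0.52 on the log2 scale. LARP1 did not pass in either line (log2 0.32 and 0.15, adjusted p 0.540 and 0.465). Of 52 genes of ribosome biogenesis, 3 fell in NCI-H1581R (5.77%, NOB1, BOP1 and NIP7) and 4 in NCI-H1703R (7.69%, FBL, BOP1, EBNA1BP2 and EIF6). None of them rose. Beside the shares of all genes called lower, theirs was below in NCI-H1581R (7.44%) and near equal in NCI-H1703R (7.67%). Among 78 mitochondrial ribosomal protein genes 1 fell in each line (1.28%) and none rose. Among 73 tested nuclear genes of oxidative phosphorylation 1 rose and 3 fell in NCI-H1581R (5.48% in either direction). In NCI-H1703R 3 of these rose and 2 fell (6.85%). Of 2003 other protein-coding genes no longer than the upper quartile of the members, 14.4% passed in NCI-H1581R and 15.0% in NCI-H1703R, with medians of 0.01 and 0.02.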

How the data were processed

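RNA of 8 libraries (2 per group) was analysed. The authors deposited estimated counts, rounded to whole numbers, for each gene, obtained by trimming reads with cutadapt, quantifying them with Salmon against GRCh38 and summing transcripts to genes; versions, annotation and strandedness are not given in the sources used here. Symbols, positions, transcript lengths (median over protein-coding transcripts) and GC contents came from GENCODE v44. Log2 fold changes and p-values came from edgeR 4.0.16 in R 4.3.3 (TMM, quasi-likelihood test, two-sided, Benjamini-Hochberg) on each line's 4 libraries, for genes with at least 10 counts over the 8 libraries, with an adjusted p threshold of 0.1. CPM values used TMM factors within a line. P-values measure the spread between 2 cultures per group. Replicates differed by more than sampling noise (chi-square divided by its degrees of freedom was 24.6 to 103). Same-numbered libraries were taken to share a culture round, as the growth protocol repeated the procedure for the second replicate. The sample titles do not state it. Deviations of same-numbered libraries correlated across 11289 genes (Pearson's r 0.23 for NCI-H1581 with NCI-H1581R and 0.56 for NCI-H1703 with NCI-H1703R). Over 76 members alone, r was 0.47 for NCI-H1581 with NCI-H1581R and 0.08 for NCI-H1703 with NCI-H1703R. Between groups of different lines, r over the 11289 genes ran from -0.54 to 0.04. Whether the block fits the members was not tested. The members, gene lists and tests were chosen with earlier results of these data known. Genes were named by rule (stalk, paralog and regulatory members, the called members with the largest changes, those with a difference between the lines, the highest and lowest per kilobase, those of chromosome 8 and those most changed by the GC and length offsets), except RPL9, RPL15, RPL29, RPL32, RPS9, RPS16, RPS19, RPS23 and the members listed only by name, which were added after their values were seen. The models were tested on simulated data. Alternatives were DESeq2 1.42.0, RLE factors, TMM factors without the members, other count filters, the replicate block, offsets for GC content and transcript length, a threshold of 0.05, a single fit of 8 libraries and leaving out each library. Copy number arrays were not used here, and a few genes counted in the totals are not reported here by name.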

Additional observations from a re-analysis of the deposited data

Results flagged for a closer look

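The change with resistance differed between the lines for RPL13A and RPL28 by the interaction test of edgeR. On the log2 scale, the NCI-H1703 change less the NCI-H1581 change came to -1.21 for RPL13A (standard error 0.29, adjusted p = 0.0337) and -1.14 for RPL28 (standard error 0.22, adjusted p = 0.0139). RPL28 passed with any 1 library left out. RPL13A did not pass without either NCI-H1581 library, either NCI-H1703 library or replicate 1 of NCI-H1703R.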

How the results depend on the processing

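The replicate block gave 2 members lower in NCI-H1581R, as did DESeq2, offsets for GC content and transcript length, and these offsets with the block; in NCI-H1703R the block gave 31 lower and 2 higher, the offsets with the block 40 lower (50.6%, against 17.6% of all genes) and 2 higher (2.53%, against 18.3%), DESeq2 17 lower, and a single fit of 8 libraries 4 lower (5.06%, against 5.77%). For the difference between the lines, the offsets with the block gave 8 lower (10.1%, against 11.6%), and 0 members were higher at a threshold of 0.05, with DESeq2 and with at least 10 counts in every library. RPS27 was lost in NCI-H1581R (0 higher) at a threshold of 0.05. Between the sensitive lines the single fit gave 6 higher (7.59%, against 29.8%) and 19 lower (24.1%, against 28.3%). There the offsets turned the direction of RPL3 (0.0018), RPL8 (0.18), RPS2 (0.40), RPS19 (0.39) and RPS23 (-0.015), and with the block as well RPL3 (0.00011), RPL8 (0.18), RPS2 (0.40), RPS19 (0.39) and RPS23 (-0.015). The share of counts in NCI-H1703R differed by -0.479 percentage points without the 5 members with the most counts. With each library left out in turn, NCI-H1581R had 0 to 44 members higher, 0 to 18 lower and a median of -0.23 to 0.43, and RPSA went from -0.33 to 0.49; NCI-H1703R had 1 to 14 lower; the difference had 0 to 4 higher, 2 to 45 lower and a median of -0.63 to 0.036; the median between the sensitive lines was -0.22 to -0.10. The causes were not tested. Other counts, medians and shares stayed within the limits set for them in 148 cases. Depth does not limit the 71 members with at least 1000 counts in every library, and 2 libraries per group limit every test.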
